A study of Rattus norvegicus with 21 samples.

Results

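Heat shock proteins and DnaJ co-chaperones were followed in rat liver over 5 doses of 2-ethylhexyl diphenyl phosphate, a plasticiser and flame retardant of the organophosphate class. Members were all genes with a probe set of their own whose symbol begins Hspa, Hspb, Hspd, Hspe, Hsph or Hsp90, or Dnaja, Dnajb or Dnajc, each followed by a number. The endoplasmic reticulum genes Hspa5, Hsp90b1 and Dnajb9 were left out by the rule. The rule gave 59 genes of the 14218 measured. Hspa8, Hsp90aa1 and Hspa1b were not analysed here, because no probe set was paired with one of them alone.

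The study was a short repeat-dose experiment of the National Toxicology Program in male Harlan Sprague Dawley rats. Every rat, vehicle rats included, was given corn oil by oral gavage once a day for 4 days, and RNA from the left lobe of each liver, removed on day 5, was run on an Affymetrix array. The groups were vehicle (corn oil alone, 6 arrays) and corn oil with the compound at 61.2, 122.5, 244.6, 489.2 or 978.5 mg/kg, with 3 arrays at each dose. The protocol states 5 vehicle rats while 6 arrays carry dose 0, and all 6 were used; p-values therefore measure the spread between these arrays.

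Heat shock proteins bind unfolded proteins and use ATP to help them fold. The HSP70 proteins work with J proteins, which deliver substrates and trigger ATP hydrolysis, and with HSP110 proteins, which exchange the nucleotide; HSP90 acts later on maturing clients, and small heat shock proteins hold unfolded proteins without ATP. When unfolded protein builds up, the transcription factor HSF1 binds heat shock elements in the promoters of many of these genes and raises their expression. Hepatocytes, which synthesise large amounts of secreted protein, hold many of them at a high level without any stress.

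Values are log2 signals on the scale of the deposited table, and a level is that signal while a difference is a dose mean minus the vehicle mean unless stated otherwise. A member is said to have risen or fallen where limma's adjusted p over all 14218 genes was under 0.05. The array medians lay between 6.33 and 6.41. Of the 21 arrays, vehicle replicate 6 stood apart: its mean correlation with the other arrays was 0.987, against 0.988 to 0.994 for the other 20. The lowest of those 20 was replicate 1 of 489.2 mg/kg, in which the summed macrophage signal was 11.47, against 12.57 to 13.22 in the vehicle arrays. The summed endothelial signal was 11.35 to 11.53 in the arrays numbered 1 of all 6 groups and 12.0 to 12.44 in the other arrays, and what the arrays of 1 number share is not given in the labels. The hepatocyte markers, Alb and Apoa1 among them, were all measured (8 of 8), and their summed signal lay between 17.34 and 17.42 in the vehicle arrays. In whole liver, fewer cells of a type and less RNA per cell cannot be told apart.

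At the lower doses few members changed. At 61.2 mg/kg limma called 0 members (1 at an unadjusted p under 0.05), where 0.0141% of all genes were called. At 122.5 mg/kg it called 0 members (0 at an unadjusted p under 0.05), with 0.113% of all genes called. At 244.6 mg/kg 1 member rose and none fell, which is 1.69% of members, beside 2.95% of all genes called, 2.52% that rose and 0.429% that fell.

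At 489.2 mg/kg 3 members rose, Hsph1, Hspb8 and Dnaja1, and Dnajc24 fell. These 4 are 6.78% of members, against 2.9% of all genes called in either direction, 1.51% that rose and 1.39% that fell. Of the 59 members 39 lay above the median gene level. Shares over all genes, here and below, were not matched for level, so no excess is read from 4 genes. Without replicate 1 of 489.2 mg/kg, limma called 0 members there: Hsph1 then differed by 0.74 (adjusted p = 0.0914), Hspb8 by 0.52 (0.258), Dnaja1 by 0.34 (0.217) and Dnajc24 by -0.41 (0.0835). At 978.5 mg/kg 4 members rose, Hspb8, Hspa4, Dnajc9 and Dnajb12, and none fell. That is again 6.78% of members, beside 10.2% of all genes called, 6.18% that rose and 4.07% that fell; a share of this size is no result about the members. No member was called between 978.5 and 489.2 mg/kg (limma, 0 of 59; 9 at an unadjusted p under 0.05), where 0.106% of all genes were called. Without replicate 1 of 978.5 mg/kg, limma called 0 members at 978.5 mg/kg against vehicle. Vehicle is shared by all 5 comparisons with it.

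These fits estimate the spread from all 21 arrays. With only the arrays of the groups compared, limma called 0 members at 489.2 mg/kg and 0 at 978.5 mg/kg. The adjusted p was then 0.0785 for Hsph1, 0.0792 for Hspb8, 0.135 for Dnaja1 and 0.0511 for Dnajc24 at 489.2 mg/kg. At 978.5 mg/kg it was 0.0627 for Hspb8, 0.0944 for Hspa4, 0.136 for Dnajc9 and 0.122 for Dnajb12. The Dnajc9 call at 244.6 mg/kg was kept (0.00389).

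Taking 489.2 and 978.5 mg/kg together against 61.2 and 122.5 mg/kg together, 6 arrays on each side and no vehicle array in either, 3 members rose: Hsph1, Dnaja1 and Hspa4. They are 5.08% of members, beside 3.05% of all genes called, 1.78% that rose and 1.27% that fell. With only these 12 arrays the calls of Hsph1 (limma adjusted p = 0.00254) and Dnaja1 (0.031) were kept and that of Hspa4 was lost (0.0677). In a trend over dose rank, in which vehicle counts as rank 0, 5 members rose with dose, Hspb8, Hspa4, Dnajb12, Dnaja1 and Hsp90ab1. This is 8.47% of members, beside 11.2% of all genes called, 6.06% that rose and 5.12% that fell. In the treated arrays alone none of these 5 trends was called. Over the 8 comparisons 8 members were called at least once and 51 never. The median member difference was 0.03, -0.02, 0.00, 0.05 and 0.04 over the rising doses, against 0.00, -0.00, -0.01, 0.01 and -0.02 for all genes. Differences were positive for 43 of 59 members at 489.2 mg/kg and for 38 at 978.5 mg/kg. They lay within 0.25 of vehicle for 45 and 50 members. These shares were not computed over all genes, so nothing particular to the members is read from them.

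**Figure D1:**
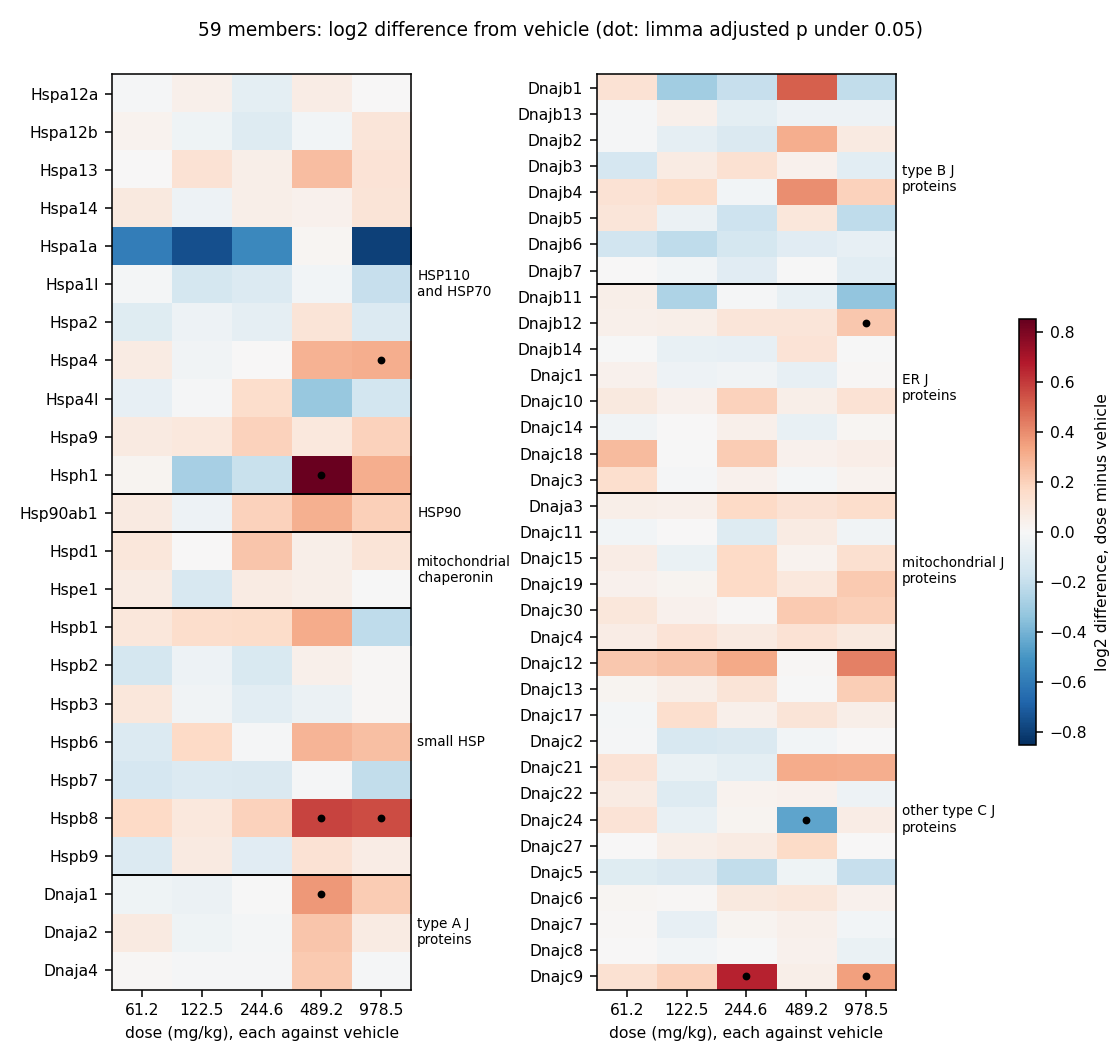
Log2 difference from vehicle (colour, blue lower and red higher) of the 59 members at the 5 doses, grouped by role, with a dot where limma's adjusted p was under 0.05. Dots lie at 244.6 mg/kg for Dnajc9, at 489.2 mg/kg for Hsph1, Hspb8, Dnaja1 and Dnajc24, and at 978.5 mg/kg for Hspb8, Hspa4, Dnajc9 and Dnajb12.

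Promoter windows of 4 members are printed because they hold heat shock elements, the sites HSF1 binds. Hsph1, Dnaja1 and Dnajb1 were also picked for their highest group mean at 489.2 mg/kg, so that pairing is no result. Dnaja4, Dnajb2 and Hsp90ab1 also had their highest group mean at that dose, and their windows hold no such element. The starts used for them lie 6410, 66 and 174 bases inside their gene spans, so these windows may not cover the whole promoter. Hspd1, whose window holds an element, had its highest group mean at 244.6 mg/kg. Each window runs from 250 bases before to 50 bases after the gene's start in RefSeq, build GRCr8, and is given 5′ to 3′ on the strand of the gene. The heat shock element is a row of units TTC and GAA in turn, each apart from the next by 2 bases of any kind. Capitals mark a 3-unit element (TTC, GAA, TTC or GAA, TTC, GAA) in Hsph1, Dnaja1 and Hspe1, with overlapping matches joined in Hspe1, and a 2-unit element (TTC, GAA or GAA, TTC) in Dnajb1. Both strands were searched. The windows are chr12:10427118-10427417 (plus strand) for Hsph1, chr5:60638154-60638453 (plus) for Dnaja1, chr19:41431092-41431391 (minus) for Dnajb1 and chr9:64084077-64084376 (plus) for Hspe1.
Hsph1: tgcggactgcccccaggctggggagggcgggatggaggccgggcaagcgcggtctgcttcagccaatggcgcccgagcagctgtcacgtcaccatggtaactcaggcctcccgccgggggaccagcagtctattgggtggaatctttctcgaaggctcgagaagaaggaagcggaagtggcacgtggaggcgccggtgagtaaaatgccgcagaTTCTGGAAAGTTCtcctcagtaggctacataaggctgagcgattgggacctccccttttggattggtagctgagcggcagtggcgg
Dnaja1: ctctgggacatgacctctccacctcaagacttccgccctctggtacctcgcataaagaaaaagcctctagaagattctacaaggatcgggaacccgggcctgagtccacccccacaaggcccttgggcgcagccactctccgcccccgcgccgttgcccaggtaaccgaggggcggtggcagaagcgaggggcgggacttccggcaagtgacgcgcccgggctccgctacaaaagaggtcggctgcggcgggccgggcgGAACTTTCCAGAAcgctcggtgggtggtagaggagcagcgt
Dnajb1: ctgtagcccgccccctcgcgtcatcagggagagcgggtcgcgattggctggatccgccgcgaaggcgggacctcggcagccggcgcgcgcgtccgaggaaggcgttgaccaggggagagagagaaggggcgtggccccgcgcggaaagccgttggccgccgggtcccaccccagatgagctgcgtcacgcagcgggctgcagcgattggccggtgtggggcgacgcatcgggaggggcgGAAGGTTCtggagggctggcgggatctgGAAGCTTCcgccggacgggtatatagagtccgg
Hspe1: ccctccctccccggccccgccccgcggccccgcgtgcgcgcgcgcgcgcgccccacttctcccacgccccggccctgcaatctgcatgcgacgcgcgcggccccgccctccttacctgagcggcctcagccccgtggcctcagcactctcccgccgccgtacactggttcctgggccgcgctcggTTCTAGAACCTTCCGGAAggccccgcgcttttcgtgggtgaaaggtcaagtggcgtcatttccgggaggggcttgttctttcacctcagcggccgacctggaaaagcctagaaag

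The 3-unit element was found in 267 of 33469 RefSeq windows (0.798%), and in the windows of 4 of the 48 members that had one, Dnaja1, Hsph1, Hspe1 and Hspd1. In Hsph1 it covers bases -36 to -24 counted from the start at 0, and in Dnaja1 bases 9 to 21. Hspd1 and Hspe1 lie head to head, and the matches of both are the same bases, chr9:64084262-64084279, so they count as 1 site. The 2-unit element, which is contained in the 3-unit one, was found in 15.9% of all windows and in 14 of 48 member windows. In Dnajb1 it lies at bases -11 to -4 and 17 to 24, and in Hspb8 at -23 to -16. The RefSeq start used for Hspb8 lies 1409 bases inside its gene span, and 22 of the 48 windows start inside the span in this way. The ER stress element, CCAAT and CCACG with 9 bases of any kind between them on either strand, was in 0.0657% of windows and in 1 member, Dnajc3, at bases -133 to -115. These are letter matches in these windows and not measured binding.

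**Figure D2:**
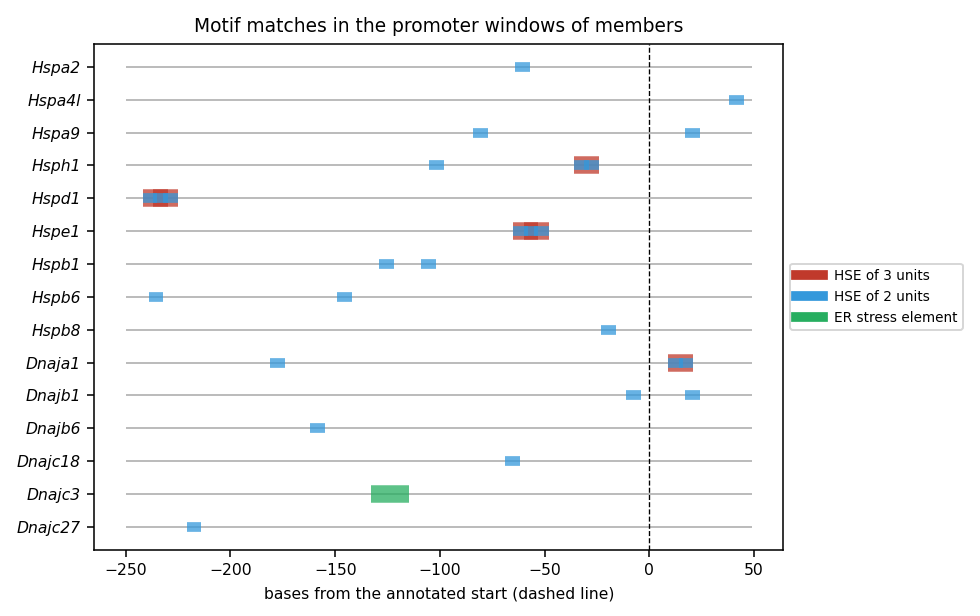
Positions of motif matches (red, 3-unit heat shock element; blue, 2-unit element; green, ER stress element) in the 300-base windows of the 15 members with a match, in bases from the annotated start (dashed line). The red boxes of Hsph1 and Hspe1 lie before the start, that of Dnaja1 lies 9 to 21 bases after it, and those of Hspd1 are the Hspe1 bases seen from the other gene.

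Among the HSP110 and HSP70 proteins, Hsph1 showed the largest called difference of any member in the 5 comparisons with vehicle. Hsph1 encodes HSP110, a nucleotide exchange factor of HSP70. Its level was 10.76, 10.34 and 10.54 in the 3 arrays at 489.2 mg/kg, against a lowest, median and highest of 9.05, 9.82 and 10.08 in the vehicle arrays, so the groups did not overlap. The difference was 0.84 ± 0.17 (SE; 1.79-fold, limma adjusted p = 0.00839, 3 against 6 arrays). Hsph1 had 10.01, 10.13 and 9.90 at 978.5 mg/kg, a difference of 0.31 ± 0.17 that was not called (limma adjusted p = 0.275), and 1 of the 3 arrays lay above every vehicle array. At 61.2, 122.5 and 244.6 mg/kg the differences were 0.03, -0.28 and -0.19, none called. Between 978.5 and 489.2 mg/kg the groups did not overlap, but the difference of -0.53 ± 0.20 was not called (limma adjusted p = 0.245).

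For 489.2 and 978.5 mg/kg together against 61.2 and 122.5 mg/kg together, Hsph1 rose by 0.70 ± 0.14 (SE; limma adjusted p = 0.00629), with 5 of 6 arrays above all the lower-dose arrays, and this call was kept when each of the 21 arrays was left out. Of the 21 fits with 1 array left out, the call at 489.2 mg/kg was lost in 1, that without replicate 1 of that dose, as given above. A further Hsph1 probe set differed by 1.03 at 489.2 mg/kg (limma adjusted p over all probe sets = 0.008) and by 0.71 at 978.5 mg/kg (0.0339), so the probe sets differ on whether the highest dose passes.

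Hspa4, an HSP110 relative that also serves HSP70 as an exchange factor, rose at 978.5 mg/kg and was not called at 489.2 mg/kg. Its level was 9.58, 9.57 and 9.63 at 489.2 mg/kg and 9.73, 9.49 and 9.59 at 978.5 mg/kg, against 9.07, 9.32 and 9.44 (lowest, median, highest) in the vehicle arrays. All 6 arrays lay above every vehicle array. The difference was 0.31 ± 0.09 (SE) at 978.5 mg/kg, which was called (limma adjusted p = 0.0361), and 0.30 ± 0.09 at 489.2 mg/kg, which was not (0.0889). Its trend was 0.06 per dose step (limma adjusted p = 0.0246). Leaving out 1 array ended the 978.5 mg/kg call without vehicle replicate 1, 2 or 4 or without replicate 1 or 3 of that dose (limma adjusted p up to 0.178), and ended the trend call without vehicle replicate 2 or without either of those treated arrays (up to 0.087). The rise of the highest doses together over the lowest together, 0.28 (limma adjusted p = 0.0429), was kept in 7 of 21 such fits (without vehicle replicate 1, 2, 3, 5 or 6, replicate 1 of 122.5 mg/kg or 2 of 978.5 mg/kg) and lost without each other array, with 0.23 to 0.32 and an adjusted p up to 0.107.

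Hspa1a, the strongly stress-inducible HSP70, was not called at any dose. The vehicle arrays had a lowest, median and highest level of 6.31, 6.61 and 8.90, the last being vehicle replicate 6. The level was 6.36, 6.53 and 6.28 at 61.2 mg/kg, 6.26, 6.22 and 6.21 at 122.5 mg/kg and 6.41, 6.48 and 6.38 at 244.6 mg/kg. It was 7.47, 6.68 and 6.81 at 489.2 mg/kg and 6.18, 6.42 and 5.94 at 978.5 mg/kg. All 3 arrays at 122.5 mg/kg and 2 at 978.5 mg/kg lay below every vehicle array. The vehicle mean is set largely by that array: the difference at 489.2 mg/kg was 0.01 ± 0.37 with it and 0.40 ± 0.16 without it (limma adjusted p = 0.202), while leaving out replicate 1 of 489.2 mg/kg instead gave -0.23. At 978.5 mg/kg it was -0.79 ± 0.37 with it and -0.41 ± 0.16 without it (0.104), not called in either case.

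Hspa9, the mitochondrial HSP70, had levels of 12.45, 12.41 and 12.08 at 489.2 mg/kg and 12.39, 12.33 and 12.53 at 978.5 mg/kg, against 12.09, 12.22 and 12.42 in vehicle (lowest, median, highest). The differences were 0.09 and 0.19 ± 0.09 and neither was called. A further Hspa9 probe set was called at 978.5 mg/kg (0.55, limma adjusted p over all probe sets = 0.0221), so its probe sets disagree. Over all 11 HSP110 and HSP70 genes the differences ranged between -0.32 and 0.84 at 489.2 mg/kg, with 8 positive, and between -0.79 and 0.31 at 978.5 mg/kg, with 7 positive.

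Hsp90ab1, the constitutive cytosolic HSP90, was called in the trend and at no single dose. Its level was 12.79, 13.11 and 13.13 at 489.2 mg/kg and 12.89, 13.05 and 12.79 at 978.5 mg/kg, against 12.61, 12.69 and 12.85 in vehicle. At each of these doses 2 of 3 arrays lay above every vehicle array. The differences of 0.30 ± 0.10 and 0.20 ± 0.10 were not called (limma adjusted p = 0.126 and 0.213), while the trend of 0.05 per dose step was (0.0477). That call was kept in 6 of 21 fits with 1 array left out (vehicle replicate 3 or 5, replicate 1 of 122.5 or 489.2 mg/kg, or 3 of 244.6 or 978.5 mg/kg) and lost without each other array (adjusted p up to 0.109), and it was lost in 7 of 12 other settings. A further Hsp90ab1 probe set differed by -0.07 at 489.2 mg/kg and by 0.63 at 978.5 mg/kg (limma adjusted p over all probe sets = 0.949 and 0.161), with a trend of 0.07 (0.429), none called.

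The mitochondrial chaperonin genes Hspd1 and Hspe1, which encode HSP60 and its cofactor HSP10, were not called at any dose. Hspd1 had 13.29, 13.14 and 13.15 at 244.6 mg/kg, against 12.85, 12.93 and 13.09 in vehicle, with no overlap. Its difference there was 0.23 ± 0.07 (SE; limma adjusted p = 0.0921), and it was 0.05 and 0.11 at 489.2 and 978.5 mg/kg. Hspe1 differed by -0.13 to 0.07 over the 5 doses.

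Of the 7 small heat shock protein genes Hspb8 rose. Hspb8 binds unfolded protein and works with Bag3 in chaperone-assisted autophagy. Its level in vehicle was 9.94, 10.12 and 10.57 (lowest, median, highest). It was 10.57, 10.31 and 10.22 at 61.2 mg/kg, 10.39, 10.27 and 10.19 at 122.5 mg/kg and 10.70, 10.42 and 10.07 at 244.6 mg/kg. At 489.2 mg/kg it was 10.88, 10.73 and 10.70, and at 978.5 mg/kg 10.92, 10.95 and 10.40. Every array at 489.2 mg/kg and 2 of 3 at 978.5 mg/kg lay above every vehicle array.

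The Hspb8 difference was 0.57 ± 0.15 (SE; 1.49-fold, limma adjusted p = 0.0438) at 489.2 mg/kg and 0.56 ± 0.15 (adjusted p = 0.0233) at 978.5 mg/kg. Its trend was 0.11 per dose step (limma adjusted p = 0.00467), kept with each of the 21 arrays left out. In the treated arrays alone this trend was not called. The call at 489.2 mg/kg was lost without vehicle replicate 2, 4, 5 or 6, replicate 2 of 61.2 or 244.6 mg/kg, any array of 122.5 mg/kg or any of 489.2 mg/kg (adjusted p up to 0.258). That at 978.5 mg/kg was lost without replicate 1 or 2 of that dose (adjusted p up to 0.119). A further Hspb8 probe set gave 0.76 and 0.82 at these doses (limma adjusted p over all probe sets = 0.0129 and 0.00294).

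Hspb1, which encodes HSP27, had 9.30, 8.37 and 9.11 at 489.2 mg/kg and 8.69, 8.43 and 8.07 at 978.5 mg/kg, against 8.05, 8.58 and 9.24 in vehicle. The groups overlapped, and the differences of 0.32 and -0.21 were not called. Hspb7, a small heat shock protein of muscle, had a difference of -0.21 ± 0.09 at 978.5 mg/kg (limma adjusted p = 0.158). Of 7 skeletal and heart muscle markers limma called 0 at these doses (0 at an unadjusted p under 0.05).

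Among the type A J proteins, which carry client proteins to cytosolic HSP70, Dnaja1 rose. Its level was 12.23, 11.99 and 12.27 at 489.2 mg/kg, against 11.56, 11.81 and 11.99 in vehicle (lowest, median, highest), with no overlap before rounding. The difference was 0.37 ± 0.09 (SE; 1.29-fold, limma adjusted p = 0.0335). Dnaja1 had 12.07, 12.03 and 11.94 at 978.5 mg/kg, a difference of 0.22 ± 0.09 that was not called (0.148).

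For the highest doses together against the lowest together, Dnaja1 rose by 0.33 ± 0.08 (SE; limma adjusted p = 0.017), and all 6 arrays lay above the other 6. Of the 21 fits with 1 array left out, that call was lost in 1, without replicate 2 of 61.2 mg/kg (0.0537). Its trend, 0.06 per dose step (limma adjusted p = 0.0398), was lost without vehicle replicate 4 or 5, replicate 1 or 2 of 61.2 or 978.5 mg/kg, or any array of 489.2 mg/kg (up to 0.0888). The call at 489.2 mg/kg was lost without vehicle replicate 2, 4 or 5 or replicate 1 or 3 of that dose (up to 0.217). Dnaja2 had 11.29, 11.09 and 11.36 at 489.2 mg/kg, against 10.79, 11.01 and 11.35 in vehicle, and its difference of 0.24 was not called. A further Dnaja1 probe set was not called in any comparison: it differed by 0.28 at 489.2 mg/kg (limma adjusted p over all probe sets = 0.0662), by 0.16 at 978.5 mg/kg (0.216) and by 0.20 for the highest doses over the lowest (0.121).

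**Figure D3:**
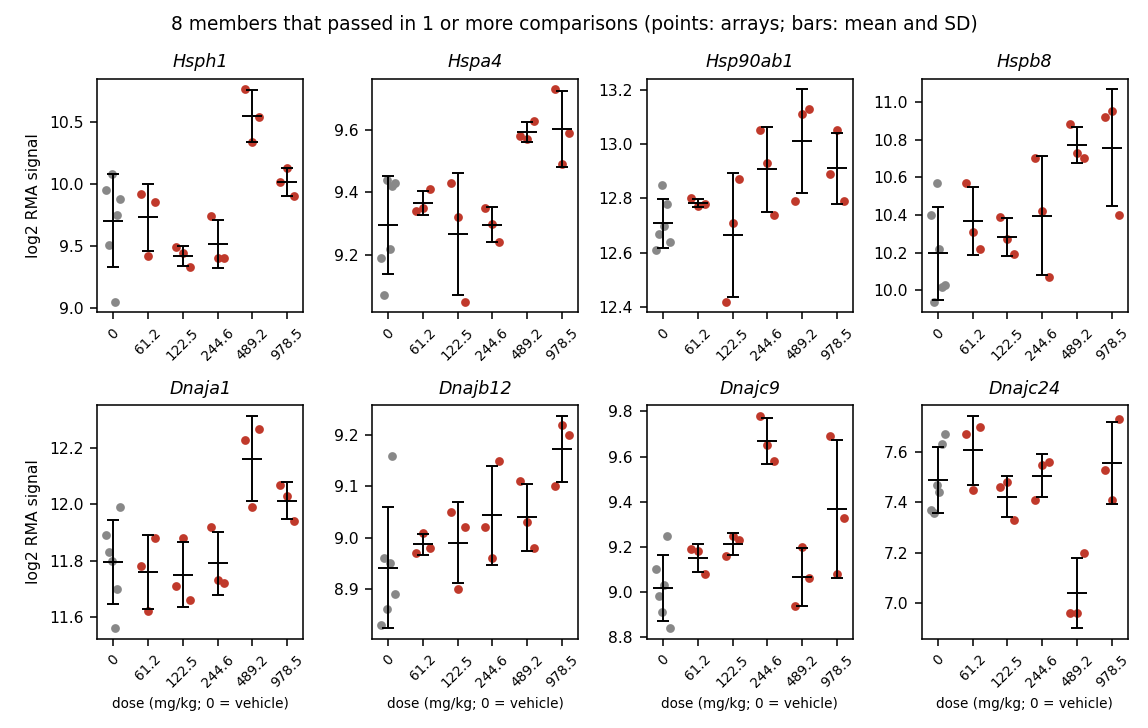
Log2 RMA signal of the 8 members called in at least 1 comparison, by dose in mg/kg with vehicle at 0 (points, arrays, grey for vehicle and red for treated; bars, mean and SD; axes do not start at 0). Hsph1 and Dnaja1 stand highest at 489.2 mg/kg, Hspb8 was called at both of the highest doses and Hspa4 at 978.5 mg/kg but not at 489.2 mg/kg, Dnajc9 stands highest at 244.6 mg/kg, and Dnajc24 is lowest at 489.2 mg/kg.

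Of the 8 type B J proteins limma called 0 at 489.2 mg/kg (3 at an unadjusted p under 0.05) and 0 at 978.5 mg/kg (0 at an unadjusted p under 0.05). Dnajb1, the main stress-inducible J protein of the cytosol, had 10.28, 9.93 and 10.32 at 489.2 mg/kg and 9.37, 9.68 and 9.32 at 978.5 mg/kg, against 9.29, 9.64 and 10.06 in vehicle. At 489.2 mg/kg 2 of 3 arrays lay above every vehicle array, and at 978.5 mg/kg all lay within the vehicle range. The difference was 0.51 ± 0.16 (SE; limma adjusted p = 0.0951) at 489.2 mg/kg and -0.21 ± 0.16 at 978.5 mg/kg. The arrays of these doses did not overlap with each other (978.5 minus 489.2 mg/kg, -0.72 ± 0.18, limma adjusted p = 0.124). A further Dnajb1 probe set did rise at 489.2 mg/kg (0.64, limma adjusted p over all probe sets = 0.00725), and gave 0.13 at 978.5 mg/kg.

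Dnajb4, a close relative of Dnajb1, had 8.92, 8.29 and 8.82 at 489.2 mg/kg, against 7.90, 8.37 and 8.42 in vehicle, a difference of 0.39 that was not called. Dnajb5 and Dnajb6, with Dnajb6 a suppressor of protein aggregation, differed by 0.10 and -0.10 at 489.2 mg/kg and by -0.22 and -0.07 at 978.5 mg/kg. The Dnajb6 vehicle arrays ran up to 9.19 in vehicle replicate 6, with a median of 7.99.

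Of the 8 ER J proteins Dnajb12, which sits in the ER membrane and takes part in the disposal of membrane proteins, rose at 978.5 mg/kg. It had 9.10, 9.22 and 9.20 there, against 8.83, 8.92 and 9.16 in vehicle, so 2 of 3 arrays lay above every vehicle array. The difference was 0.23 ± 0.07 (SE; limma adjusted p = 0.0432) and the trend 0.04 per dose step (0.0313). The first call was lost without vehicle replicate 1, 2, 3, 4 or 6, replicate 1 or 2 of 61.2 mg/kg, 1 of 244.6 mg/kg, 2 of 489.2 mg/kg or any array of 978.5 mg/kg (adjusted p up to 0.162). The trend call was lost without vehicle replicate 1 or 3 or any array of 978.5 mg/kg (up to 0.0904). A further Dnajb12 probe set showed -0.00 at 978.5 mg/kg.

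Dnajb11 and Dnajc3, ER luminal partners of the chaperone Hspa5, were not called. Dnajb11 had 10.14, 10.04 and 9.94 at 978.5 mg/kg, against 10.14, 10.39 and 10.62 in vehicle, a difference of -0.34 ± 0.14 (limma adjusted p = 0.128). Dnajc3, the 1 member with an ER stress element in its window, differed by -0.01 and 0.03 at 489.2 and 978.5 mg/kg. The ER chaperones outside the rule, Hspa5, Hsp90b1 and Dnajb9, were not called either, with differences of 0.08 to 0.15 at 489.2 mg/kg and -0.09 to 0.02 at 978.5 mg/kg. Of the 6 mitochondrial J proteins limma called 0 at both doses (1 and 2 at an unadjusted p under 0.05), with differences of 0.03 to 0.22 at 489.2 mg/kg and -0.03 to 0.22 at 978.5 mg/kg.

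Among the other type C J proteins, Dnajc9 rose at 244.6 and 978.5 mg/kg and was not called at 489.2 mg/kg. DNAJC9 is known in human cells as a histone chaperone that recruits HSP70. Its level was 9.78, 9.65 and 9.58 at 244.6 mg/kg, against 8.84, 9.01 and 9.25 in vehicle, with no overlap. The difference there was 0.65 ± 0.11 (SE; 1.57-fold, limma adjusted p = 0.00149), and the call was kept with each of the 21 arrays left out.

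At 489.2 mg/kg Dnajc9 had 8.94, 9.20 and 9.06, within the vehicle range. Its level was 9.69, 9.08 and 9.33 at 978.5 mg/kg, where 1 array lay within the vehicle range. The difference of 0.35 ± 0.11 at 978.5 mg/kg was called (limma adjusted p = 0.0436), but only in 8 of 21 fits with 1 array left out (0.18 to 0.49, adjusted p up to 0.319). The call was lost without vehicle replicate 1, 2, 3, 4 or 6, replicate 1 or 2 of 61.2 mg/kg, 2 or 3 of 122.5 mg/kg, 2 of 244.6 mg/kg, 3 of 489.2 mg/kg, or 1 or 3 of 978.5 mg/kg.

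Dnajc24, which is needed to make diphthamide on elongation factor EF2, fell at 489.2 mg/kg. Its level was 6.96, 6.96 and 7.20 there, against 7.36, 7.46 and 7.67 in vehicle, with no overlap, and 7.53, 7.41 and 7.73 at 978.5 mg/kg. The difference was -0.45 ± 0.09 (SE; limma adjusted p = 0.00888), lost among the 21 fits with 1 array left out in that without replicate 1 of the dose (0.0835). Between 978.5 and 489.2 mg/kg it was 0.51 ± 0.11 (limma adjusted p = 0.0521). A further Dnajc24 probe set, with a mean level of 5.57 that is below the median of every array, showed -0.03 at 489.2 mg/kg.

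Dnajc12, a J protein that binds aromatic amino acid hydroxylases, had 10.47, 9.83 and 10.26 at 978.5 mg/kg, against 9.50, 9.76 and 10.21 in vehicle. Its difference of 0.43 ± 0.15 was not called (limma adjusted p = 0.0686), and it was 0.01 at 489.2 mg/kg. Dnajc21, needed for ribosome assembly in yeast and human cells, differed by 0.31 at both 489.2 and 978.5 mg/kg (0.211 and 0.123).

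**Figure D4:**
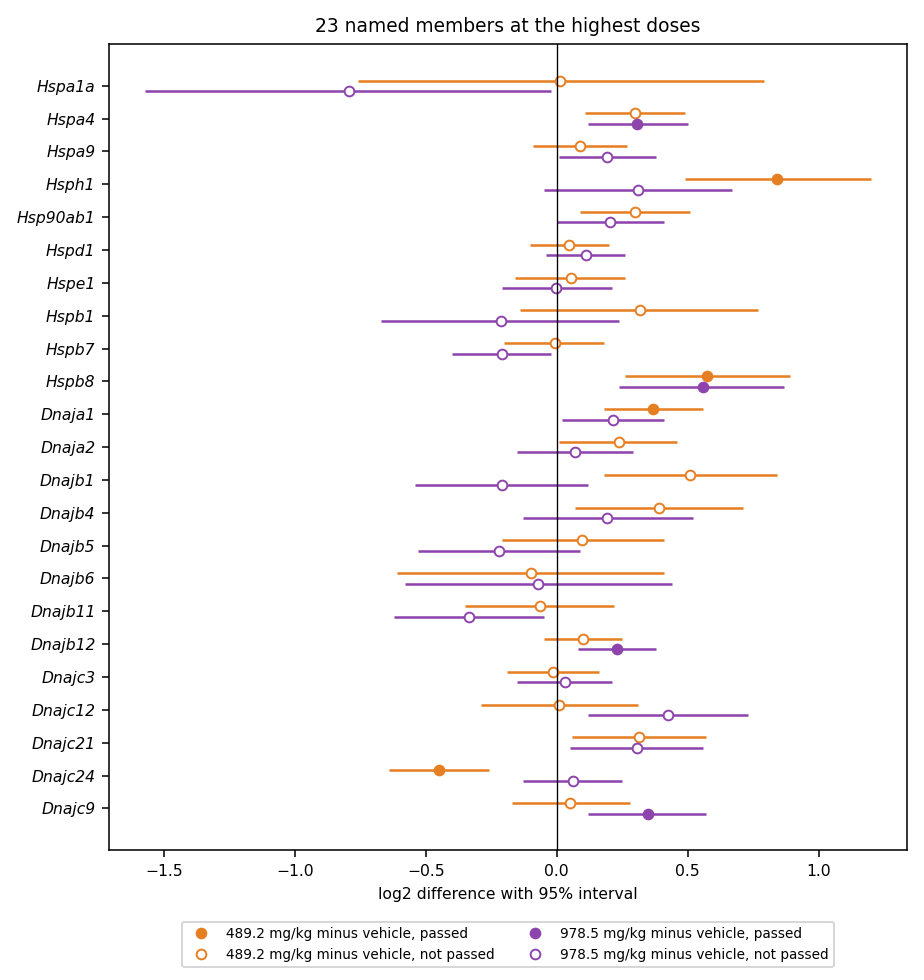
Log2 difference from vehicle with its 95% interval for the 23 named members at 489.2 mg/kg (orange) and 978.5 mg/kg (purple), filled where limma's adjusted p was under 0.05. Intervals of Hsph1 at 489.2 mg/kg (0.49 to 1.20) and of Hspb8 at both doses lie clear of 0, and Hspa1a has the widest interval. The intervals are not adjusted for the number of genes. Those of all other filled points also lie clear of 0, as do some of open points, such as Hsp90ab1 at 489.2 mg/kg.

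Partner genes of HSP70 and HSP90 were also called at the highest doses, in lists chosen with earlier results of these data known. Their counts stand beside 1.51% of all genes that rose at 489.2 mg/kg and 6.18% at 978.5 mg/kg, and nothing particular to a list is read from them. Of 14 measured HSP90 cofactors 4 rose at 489.2 mg/kg, Chordc1, Tomm70, Ahsa1 and Ptges3, and none fell; at 978.5 mg/kg Ptges3 and Tomm70 rose, and at 244.6 mg/kg Tomm70. Chordc1, an HSP90 co-chaperone, had 10.47, 9.95 and 10.28 at 489.2 mg/kg, against 9.17, 9.49 and 9.71 in vehicle, a difference of 0.76 ± 0.13 (SE; limma adjusted p = 0.00321; 0.0423 without replicate 1 of that dose). Ahsa1, which activates the HSP90 ATPase, differed by 0.40 (0.0379) at that dose, lost without vehicle replicate 2 or 4 or any array of 489.2 mg/kg (adjusted p up to 0.168) and with only the arrays compared (0.102). At 978.5 mg/kg Chordc1 and Ahsa1 differed by 0.22 and 0.13, neither called.

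Ptges3, the co-chaperone p23, differed by 0.33 and 0.31 at 489.2 and 978.5 mg/kg (limma adjusted p = 0.00989 and 0.00571). The first call was lost without replicate 1 or 3 of 489.2 mg/kg (up to 0.0545) and with only the arrays compared (0.0571). Tomm70, a mitochondrial import receptor that docks HSP70 and HSP90, differed by 0.41 and 0.58 (0.00341 and 4.35e-05).

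Of 14 measured HSP70 cofactors Stip1, which links HSP70 to HSP90, rose at 489.2 mg/kg by 0.70 ± 0.15 (SE; limma adjusted p = 0.014), lost in 1 of 21 fits with 1 array left out, that without replicate 1 of the dose (0.111), and also with only the arrays compared (0.0577). St13, which stabilises HSP70 bound to its substrate, rose at 244.6 mg/kg by 0.32 (0.0169) and at 978.5 mg/kg by 0.33 (0.00685). Bag3, an HSP70 exchange factor and the partner of Hspb8, differed by 0.46 ± 0.13 at 489.2 mg/kg (0.0659) and 0.03 at 978.5 mg/kg, not called.

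Of 12 measured genes listed as other targets of HSF1, 3 rose at 489.2 mg/kg (Chordc1, Ahsa1 and Stip1, also in the cofactor lists), and 1, Cacybp, at 978.5 mg/kg (0.46, limma adjusted p = 0.0213; 0.202 without replicate 3 of that dose). Of 13 cytosolic chaperonin and prefoldin genes limma called 0 at each dose (4 at an unadjusted p under 0.05 at 489.2 and at 978.5 mg/kg), with differences of 0.00 to 0.32 at 489.2 mg/kg. Of the 4 regulators, Hsf1 differed by 0.13 and -0.08 at 489.2 and 978.5 mg/kg and was not called. Hsf2 rose at 978.5 mg/kg by 0.45 (0.0386), lost without vehicle replicate 3 or 5 or any array of that dose (up to 0.199) and with only the arrays compared (0.12).

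**Figure D5:**
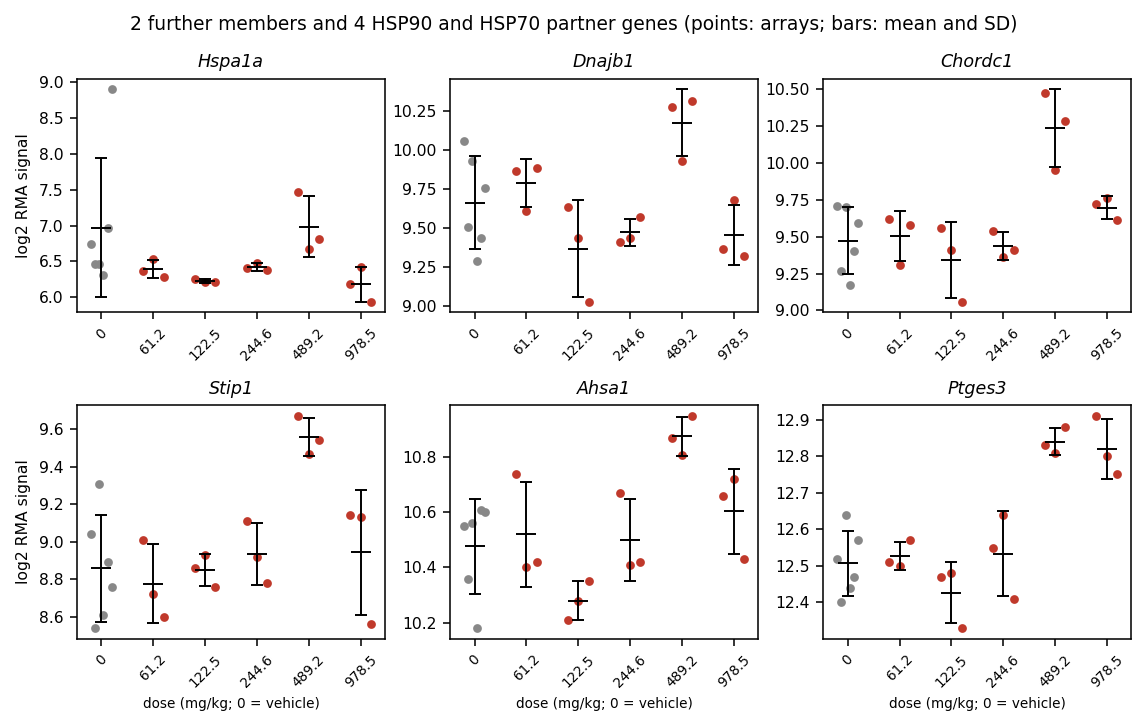
Log2 RMA signal of Hspa1a, Dnajb1 and the partner genes Chordc1, Stip1, Ahsa1 and Ptges3, by dose in mg/kg with vehicle at 0 (points, arrays, grey for vehicle and red for treated; bars, mean and SD; axes do not start at 0). Chordc1, Stip1 and Ahsa1 stand above vehicle at 489.2 mg/kg, Ptges3 at both of the highest doses, and 1 vehicle array of Hspa1a lies at 8.90.

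Across the 21 arrays the gene most like Hsph1 was Chordc1 (r = 0.95, and 0.86 with group means removed), followed by Ahsa1 (0.89 and 0.77) and Dnaja1 (0.88 and 0.73). The genes most like Dnaja1 were Usp2 (0.89), Hsph1 (0.88) and Chordc1 (0.87). For Hspa4 they were Ndufaf4 (0.91), Atp6v1a (0.89) and Ptges3 (0.89), and for Hspb8 Klf16 and Sqstm1 (0.84 each). These arrays share the doses and 1 vehicle group, so the values describe likeness only.

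The genes most like Dnajc9 were Rfc4 (r = 0.94, and 0.85 with group means removed), Cenpk (0.92) and Dtymk (0.92), with Gins4, Dut and Mcm6 next, several of which are known in DNA replication. At 244.6 mg/kg these 6 differed from vehicle by 0.53 to 1.68, and at 489.2 mg/kg by -0.16 to 0.05. They were picked for likeness to Dnajc9 over these same arrays, so sharing its dose pattern is no result. The gene most like Dnajc24 was Enpep (0.89) and that most like Dnajb12 was Cpped1 (0.83). No gene came above 0.71 for Hsp90ab1.

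Markers of some other cell types, mainly at 978.5 mg/kg, and circadian clock genes at both of the highest doses also differed from vehicle. Counts in this and the next paragraphs stand beside 6.18% of all genes that rose and 4.07% that fell at 978.5 mg/kg. At 489.2 mg/kg 1.51% of all genes rose and 1.39% fell. Of 9 macrophage markers 7 were measured, all were lower at 978.5 mg/kg, and 1, Cd163, fell; their summed signal lay between 12.10 and 12.46, against 12.57 to 13.22 in vehicle. Of 7 red blood cell markers 5 were measured, all were lower and 3 fell, with a summed signal of 12.03 to 12.81, against 12.88 to 14.20 in vehicle. Of 7 stellate and fibroblast markers 2 fell, with 11.43 to 11.94, against 11.76 to 12.40 in vehicle. Of 8 hepatocyte markers limma called 0 (3 at an unadjusted p under 0.05), with 17.26 to 17.33, against 17.34 to 17.42 in vehicle.

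Of 6 bile duct markers 5 were measured, 4 were lower and 1, Epcam, rose at 978.5 mg/kg (0.64 ± 0.13, limma adjusted p = 0.00324). The summed signal was 10.16 to 10.31, against 9.45 to 10.02 in vehicle. Epcam had 9.83, 10.05 and 9.82 there and no other marker of this list was above 6.65, so the sum mostly repeats Epcam. Of 7 lymphocyte markers 6 were measured and all were lower, with limma calling 0 (3 at an unadjusted p under 0.05) and a summed signal of 8.50 to 8.76, against 8.75 to 9.25 in vehicle. Of 7 endothelial markers 5 were measured and 4 were lower, with limma calling 0 (0 at an unadjusted p under 0.05) and 11.51 to 12.14, against 11.50 to 12.44 in vehicle.

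At 489.2 mg/kg the summed macrophage signal was 11.47 to 13.11, its lowest value being replicate 1, and the red cell signal 12.07 to 13.26, both overlapping vehicle. Of 7 stellate and fibroblast markers 1 fell there, with 11.06 to 11.96, against 11.76 to 12.40 in vehicle. Of 14 measured clock genes, 5 rose and 3 fell at 489.2 mg/kg and 5 rose and 4 fell at 978.5 mg/kg. Dbp, a clock output factor, differed by 2.67 and 2.87, and Npas2, a partner of BMAL1, by -1.80 and -1.75. No marker list had a gene at 0, since array signals carry background. The part of these shifts in the chaperone results was not tested.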

How the data were processed

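The deposited values were log2 signals, made from the scanned Affymetrix arrays by robust multi-array averaging (RMA) per the submitters' processing notes, its version being not given in the sources used here. The table held 31099 probe sets on 21 arrays: 20832 were paired with 1 gene, 436 with several and 9831 with none. Only the first kind was named. Each of the 14218 genes was represented by the probe set whose mean over the arrays was highest; 25 members had several. No further scaling was applied.

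Tests used limma 3.58.1 (R 4.3.3) with 1 mean per group over 21 arrays and 15 residual degrees of freedom, with Benjamini-Hochberg adjustment over all genes at 0.05. The trend used dose rank. The number of arrays limits the precision. Tables and plots used Python 3.11.15, pandas 2.3.3 and matplotlib 3.10.9, and the fit was tested on simulated data.

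Members and lists were chosen with earlier results of these data known. Named members were those called in any comparison, the 6 largest rises and falls at 978.5 mg/kg, and main chaperones. Alternatives covered probe sets, centring, normalization, array weights, replicate block, thresholds and leaving out each array. Promoter windows of 48 members came from RefSeq (GRCr8). Dnaja2, Dnajb4, Dnajc2, Dnajc8, Dnajc11, Dnajc12, Dnajc15, Dnajc22, Dnajc24, Hspa12a and Hspb2 have none here.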

Additional observations from a re-analysis of the deposited data

Results flagged for a closer look

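Of the 23 named members, the 6 vehicle arrays of 2 held a value far from the rest by Dixon's criterion, and chance gives this in about 1 in 20 groups. Hspa1a was 8.90 in vehicle replicate 6, with the next vehicle array at 6.96. Dnajb6 was 9.19 in the same array, with the next at 8.10. The cause was not tested.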

How the results depend on the processing

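Called members were 0, 0, 1, 4 and 4 at the rising doses, 0 between 978.5 and 489.2 mg/kg, 3 for the highest against the lowest doses and 5 in the trend. Leaving out each array gave 0 to 0, 0 to 0, 1 to 1, 0 to 6 and 0 to 4 at the doses, 0 to 1 between the highest doses, 1 to 4 for the highest against the lowest and 1 to 6 in the trend. Without vehicle replicate 6 the counts were 0, 0, 1, 3, 4, 1, 3 and 6. Of 17 called gene results, 3 were kept in every such fit and 0 reversed. The calls at 489.2 and 978.5 mg/kg became 0 and 0 with only the arrays compared, 2 and 0 at an adjusted p under 0.01, and 1 and 1 at an unadjusted p under 0.05 with 1.5-fold. At 244.6 mg/kg array weights and a second quantile normalization gave 2 each. Between the highest doses the second quantile normalization gave 1, and the unadjusted rule with 1.5-fold gave 1. For the highest against the lowest doses, genes above the median level gave 5, array weights 7, an adjusted p under 0.01 gave 1 and the unadjusted rule 1. The trend gave 0 in treated arrays alone and 1 at 0.01. An F test over the 6 groups, which asks for any difference and not for a trend, gave 3 members. None of the 5 members called in the trend was among them. The cause of these shifts was not tested.

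With the replicate number as a block the counts were 1 at 489.2 mg/kg, 2 at 978.5 mg/kg, 2 between these doses and 3 in the trend. Vehicle replicates 4, 5 and 6 have no treated array of the same number. In this fit they added nothing to the comparisons with vehicle or to the trend. Each dose was thus set against vehicle replicates 1, 2 and 3, and the number cannot be told apart from the smaller vehicle group. Member calls ended at 489.2 mg/kg for Dnaja1 (limma adjusted p = 0.103), Dnajc24 (0.0613) and Hspb8 (0.15), at 978.5 mg/kg for Dnajc9 (0.0625) and Hspb8 (0.0789), and in the trend for Dnaja1 (0.0714) and Hsp90ab1 (0.104). Of the partner genes, Ahsa1, Ptges3 and Stip1 at 489.2 mg/kg and Cacybp and Hsf2 at 978.5 mg/kg were no longer called (0.0741 to 0.102). The labels do not say what a number shares. With group means removed, same-numbered arrays of different groups correlated from -0.23 to 0.37 (45 pairs), so not every pair moved together. Their median was 0.06, against -0.02 for arrays of different numbers. As hints from the data, 10 of the 18 arrays numbered 1 to 3 correlated best on average with their own number. Stab2, Lyve1, Kdr and Tek were lowest in replicate 1 of all 6 groups.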
